A study of Mus musculus with 13 samples.

Results

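Wfdc18 and its relatives were followed across adenomas and adjacent normal epithelium of the mouse small intestine, in Apc mutants crossed with FP transgenic animals. The members were Wfdc18, Wfdc2, Wfdc1, Wfdc3, Wfdc12, Slpi and Wap, taken by gene symbol from probe sets that carry exactly 1 symbol. All 7 of the 7 genes were found, on 8 of 21789 such probe sets, and they stand among 19938 genes. Wfdc3 had 2 probe sets and the other members 1 each, and the probe set with the highest mean over 13 arrays was taken as the main one. Wfdc18 was chosen by its measured difference between adenomas and normal epithelium, so its values in that comparison are given as a description with no test. The other 6 were chosen by family, and their differences were tested.

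Each of the 13 samples was hybridised to its own Affymetrix Mouse Gene 1.0 ST array. The groups were adenomas (n = 3), FP-high normal epithelium (n = 4) and FP-low normal epithelium (n = 6). Both normal groups came from tissue beside adenomas, so every sample, the normal ones included, came from Apc mutant mice carrying FP transgenes. The labels do not spell out FP, the Apc allele, the ages or which arrays share an animal, so p-values reflect only how these samples scatter, and that scatter may be technical. Precision is limited by how few arrays there are per group.

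The WAP domain is a small fold held by disulfide bonds, named after whey acidic protein, a major protein of mouse milk. Many proteins that carry it are secreted, and some, such as Slpi, block serine proteases that leukocytes release, while others have antibacterial activity. In mice Wfdc18, earlier named Expi or WDNM1, was described in the mammary gland as an extracellular proteinase inhibitor. In RefSeq order (GRCm38.p6), Wfdc18 lies between Wfdc17 and Wfdc21, whereas Wfdc12, Slpi, Wfdc2 and Wfdc3 belong to another cluster of WAP-domain genes, and Wap and Wfdc1 stand apart from both.

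Start regions are shown for Wfdc18, Wfdc17 and Wfdc2. Wfdc18 was chosen by its difference, and Wfdc17 and Wfdc2 had a limma adjusted p under 0.05 against normal epithelium. For Wfdc2 this was lost with the replicate number as a block (limma, adjusted p = 0.292). It was also lost in most fits that left out a single array. Wfdc15b, not shown, had a similar difference (1.11, against 1.15 for Wfdc2) but did not pass (limma, adjusted p = 0.425). Each run is the 250 bases before the annotated start, 5′ to 3′ on the plus strand, from RefSeq with build GRCm38.p6. They lie at chr11:83708754-83709003 for Wfdc18, chr11:83703806-83704055 for Wfdc17 and chr2:164562465-164562714 for Wfdc2. Capitals mark a TATAAA in Wfdc18, at positions -31 to -26 from the start, and in Wfdc17 the reverse complement of CTTTGAT, a form of the TCF/LEF motif through which beta-catenin acts, at -149 to -143.
Wfdc18: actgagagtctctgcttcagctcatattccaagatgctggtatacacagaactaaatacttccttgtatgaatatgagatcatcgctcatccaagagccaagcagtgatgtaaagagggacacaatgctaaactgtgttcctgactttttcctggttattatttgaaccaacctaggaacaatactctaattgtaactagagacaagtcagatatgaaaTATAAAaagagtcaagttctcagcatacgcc
Wfdc17: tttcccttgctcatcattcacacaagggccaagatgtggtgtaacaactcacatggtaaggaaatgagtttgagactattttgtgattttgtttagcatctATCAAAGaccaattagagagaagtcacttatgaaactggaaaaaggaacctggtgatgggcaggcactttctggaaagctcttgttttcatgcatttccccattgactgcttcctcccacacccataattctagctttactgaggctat
Wfdc2: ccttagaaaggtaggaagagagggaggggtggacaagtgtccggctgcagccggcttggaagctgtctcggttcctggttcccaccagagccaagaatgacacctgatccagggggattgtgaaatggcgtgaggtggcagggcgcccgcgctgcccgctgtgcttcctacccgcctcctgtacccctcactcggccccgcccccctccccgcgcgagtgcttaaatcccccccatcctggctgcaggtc

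Short motifs were searched on both strands of these windows, overlaps allowed: CTTTGAT and CTTTGTT for TCF/LEF, TGANTCA for AP-1, TATAAA for the TATA box, AGATAA for GATA factors and TTTATNG for CDX factors. TATAAA was present in 12.9% and CTTTGAT in 3.18% of 27025 promoters of the same length. None of the 6 motifs was found in the windows of Wfdc2, Wfdc3, Wfdc12, Slpi or Wap, and the remaining 5 were absent from that of Wfdc18. CTTTGTT occurs in 5.04%, TGANTCA in 6.87%, AGATAA in 10.2% and TTTATNG in 10.2% of the promoters. Such matches describe letters in a window and nothing else.

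The array of FP-high replicate 1 stood apart from the rest. The SD of its log2 values was 1.21, against 1.89 to 2.10 in the other arrays, and its median correlation with them was 0.762, against 0.943 to 0.968. Array medians were 4.55 to 4.65. The 12 epithelium markers averaged 8.40 to 9.10 per adenoma array, 6.42 to 9.24 per FP-high array and 8.30 to 9.11 per FP-low array, and 0 of the 12 were called between adenomas and normal epithelium, or 1 as higher without FP-high replicate 1. Epcam, an adhesion protein of epithelial cells, had mean log2 levels of 9.28 in adenomas, 8.71 in FP-high samples and 9.20 in FP-low samples. These group means of a single marker lay above the array medians. The FP-high array that averaged 6.42 over the list lay below the median of its group, 8.89. Of the 12 markers, 7 were higher and 5 lower in adenomas than in normal epithelium. Xist, an RNA of female cells, was at 8.64 to 9.71 in 5 arrays and at 2.34 to 3.61 in the other 8. The 5 were the 3 adenomas, FP-high replicate 4 and FP-low replicate 6. Eif2s3y, another sex-linked gene, was at 2.01 to 2.25 in these 5 and at 4.43 to 6.87 in the other 8. By these RNAs, sex and group overlap. Differences within the high-Xist arrays were taken only for the members and Wfdc17. For every other gene, a difference of adenomas from normal cannot be told apart from one of sex. In bulk RNA, more cells of a type and more RNA per cell cannot be told apart.

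Wfdc18 was at a high level in every adenoma and at a low level in every normal sample. Its log2 level was 11.62, 10.95 and 10.24 in adenoma replicates 1, 2 and 3. In FP-high samples it was 4.51, 4.03, 4.03 and 4.22 in replicates 1 to 4, and in FP-low samples it ran from 3.70 through a median of 4.04 to 4.23. The groups did not come near each other: the lowest adenoma lay 5.73 log2 units above the highest normal array. The mean of adenomas was 10.94 ± 0.69 (SD, n = 3), that of FP-high samples 4.20 ± 0.22 (SD, n = 4) and that of FP-low samples 4.01 ± 0.19 (SD, n = 6). Adenomas thus exceeded the average of the normal means by 6.83 on the deposited log2 scale. The difference was 6.74 against FP-high and 6.92 against FP-low samples alone, 2 comparisons that share the adenoma arrays. Without FP-high replicate 1 it was 6.88. Within the 5 arrays with high Xist it was 6.75, the 2 normal arrays among them being at 4.16 and 4.22. The normal levels of Wfdc18 lay below the array medians, and the deposited values carry no detection call, so whether the gene is expressed in normal epithelium cannot be read from them.

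Between the normal groups Wfdc18 did not differ beyond the spread. FP-high minus FP-low was 0.19 ± 0.22 (SE), with a 95% interval from -0.30 to 0.67 (limma, adjusted p = 0.652). The highest normal value, 4.51, was in FP-high replicate 1, and without that array the difference was 0.082 (adjusted p = 0.957).

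**Figure D1:**
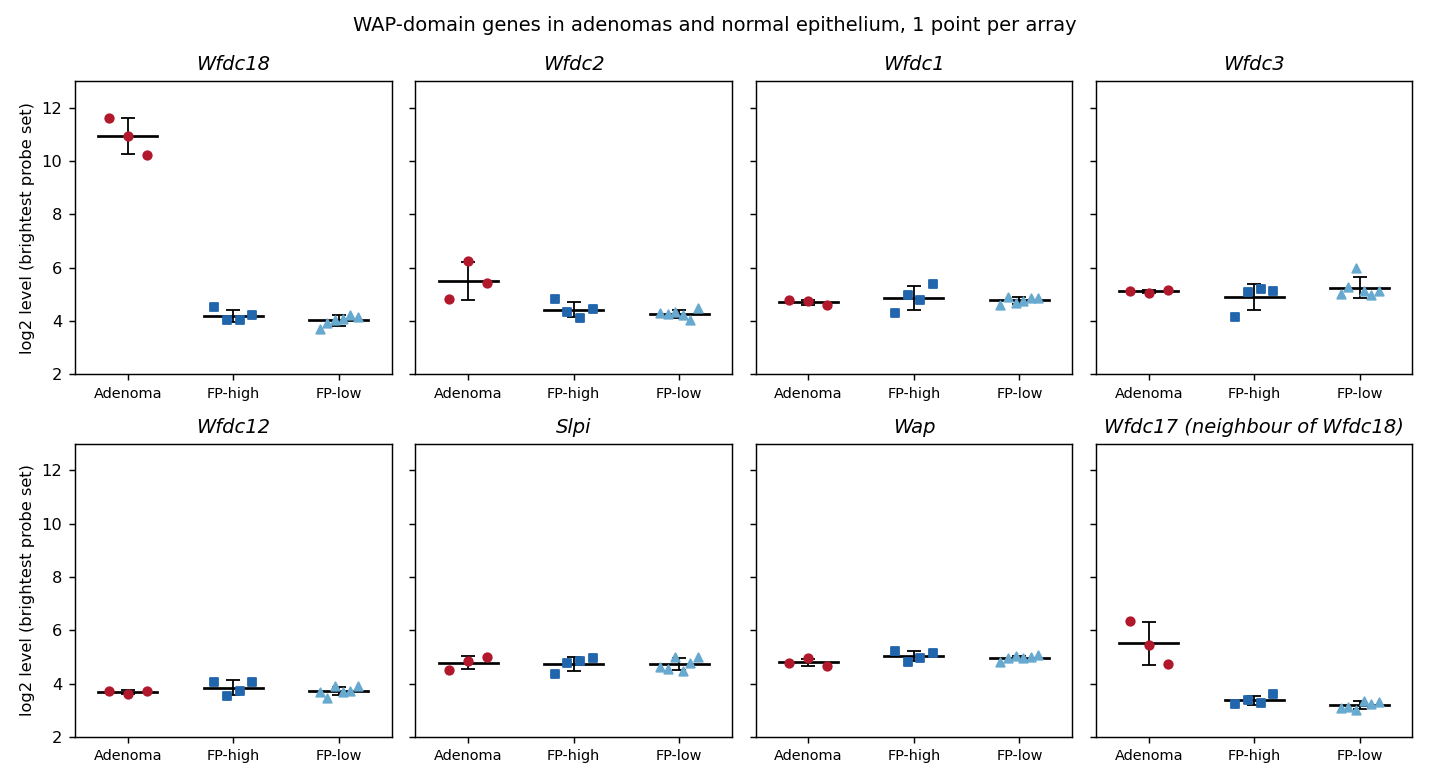
Log2 level of the main probe set of each gene (y axis, same scale throughout) in adenomas, FP-high and FP-low samples. Each point is an array, the long line the mean and the bars the SD. Wfdc18 in adenomas (10.24 to 11.62) lies far above all normal arrays. Wfdc17 is higher in all adenomas by less. Wfdc2 is higher on average, with its lowest adenoma level with the highest FP-high array, and the other 5 genes overlap between the groups.

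Wfdc2, also called HE4, is a secreted protein of airway and reproductive epithelium. It was modestly higher in adenomas. Its log2 level was 4.81, 6.24 and 5.43 in adenoma replicates 1 to 3, against 4.82, 4.31, 4.12 and 4.44 in FP-high replicates 1 to 4. FP-low samples ran from 4.03 through a median of 4.27 to 4.48. All 3 adenomas were above all 6 FP-low arrays, while adenoma replicate 1 and FP-high replicate 1 were level, with a difference of -0.0045. Adenoma replicate 1, the highest in Wfdc18, was the lowest adenoma in Wfdc2.

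The means of Wfdc2 were 5.49 ± 0.72 in adenomas (SD, n = 3), 4.42 ± 0.30 in FP-high (SD, n = 4) and 4.27 ± 0.15 in FP-low samples (SD, n = 6). The difference from normal was 1.15 ± 0.24 (SE), which passed by limma (adjusted p = 0.042). With the replicate number as a block the call was lost (1.14, limma, adjusted p = 0.292). Same-numbered adenoma and FP-high arrays had r of 0.102 to 0.233 in their deviations over 3 pairs. Same-numbered pairs with an FP-low array had r of -0.361 to 0.178. Arrays of different numbers were not compared, so these r do not show whether the arrays are paired. Without the block, Wfdc2 did not pass against FP-low alone (1.23 ± 0.25, adjusted p = 0.060) or FP-high alone (1.07 ± 0.27, adjusted p = 0.111). The call rests on single arrays: of 13 fits that each left out 1 array, 2 kept it. Those were the fits without FP-high replicate 1 (1.22, adjusted p = 0.017) and without adenoma replicate 1 (1.49, adjusted p = 0.013). Leaving out adenoma replicate 2 gave 0.78 (adjusted p = 0.242) and leaving out adenoma replicate 3 gave 1.18 (adjusted p = 0.123). Each of the other 9 normal arrays left out gave adjusted p = 0.060 to 0.075. Within the arrays of high Xist the difference was 1.03, with the 2 normal arrays at 4.44 and 4.48.

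Of the 6 tested members, Wfdc2 alone was called between adenomas and normal epithelium, against 0.91% of all 23410 tested probe sets (207 higher and 6 lower; 186 and 38 after quantile normalization). None of the 6 was called by limma against FP-low alone, where 0.551% of all probe sets were, or against FP-high alone, where 0.765% were. At an unadjusted p under 0.05 Wfdc2 was the 1 member that passed in each of these comparisons, which share the adenoma arrays. Over all 23410 probe sets, 2474 passed that limit against normal, 1743 against FP-low alone and 3686 against FP-high alone. None of the 6 had adenoma and normal arrays that were fully separate, as 3.97% of all probe sets did. The median difference of the 6 tested members was -0.028 (3 higher), close to that of all tested probe sets (-0.091). Without FP-high replicate 1 these medians were -0.071 and -0.075.

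Slpi is an inhibitor of neutrophil elastase and cathepsin G. It was at 4.51, 4.86 and 4.99 in adenomas, against 4.36, 4.76, 4.84 and 4.94 in FP-high samples and 4.46 to 5.0 (median 4.69) in FP-low samples. The groups overlapped throughout. Adenoma minus normal was 0.060, with a 95% interval from -0.30 to 0.43 (limma, adjusted p = 0.877). That interval leaves out a change in array signal as large as that of Wfdc2. Slpi lay near the array medians (4.55 to 4.65) and has no detection call, so a change in its transcript is not bounded in the same way. The same limit holds for the members that follow.

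Wap, the milk protein that gives the family its name, was at 4.75, 4.95 and 4.67 in adenomas, against 5.24, 4.82, 4.95 and 5.16 in FP-high samples and 4.81 to 5.05 (median 4.97) in FP-low samples. In 2 of 3 adenomas it lay below every normal array. The difference from normal was -0.21 (interval -0.48 to 0.056) and did not pass (limma, adjusted p = 0.555). Of 7 measured milk protein genes 0 were called, against 0.91% of all probe sets. Their median was -0.16, beside -0.091 for all tested probe sets. Csn2, which encodes beta-casein, had means of 3.48 in adenomas, 3.90 in FP-high and 3.62 in FP-low samples.

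Wfdc12, an antibacterial protein in mice, was at 3.73, 3.61 and 3.73 in adenomas, against 4.07, 3.52, 3.73 and 4.07 in FP-high samples and 3.45 to 3.90 (median 3.71) in FP-low samples. Its difference from normal was -0.096 (interval -0.41 to 0.22; limma, adjusted p = 0.776). Wfdc1, also called ps20, was first known as a growth-inhibiting protein of stroma. It was at 4.77, 4.75 and 4.60 in adenomas, against 4.31, 4.97, 4.80 and 5.40 in FP-high samples and 4.58 to 4.91 (median 4.79) in FP-low samples. FP-high replicates 1 and 4 held both its lowest and its highest value, and its difference from normal was -0.11 (interval -0.51 to 0.28; adjusted p = 0.789).

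Wfdc3 was at 5.12, 5.05 and 5.15 in adenomas, against 4.14, 5.07, 5.19 and 5.12 in FP-high samples and 4.96 to 6.00 (median 5.12) in FP-low samples. Its extremes were the low of FP-high replicate 1 and the high of FP-low replicate 3. The difference from normal was 0.040 (interval -0.49 to 0.57; limma, adjusted p = 0.945), and -0.083 without FP-high replicate 1. Its dimmer probe set averaged 3.56 ± 0.10 in adenomas (SD, n = 3), 3.71 ± 0.27 in FP-high (SD, n = 4) and 3.71 ± 0.20 in FP-low samples (SD, n = 6), a difference of -0.15 (adjusted p = 0.687), so the probe sets differed in sign and neither passed.

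Between FP-high and FP-low epithelium none of the 7 members was called. The background was 0% too, since limma called 0 of 23410 probe sets, while 2979 had an unadjusted p under 0.05. Without FP-high replicate 3 limma called 136 probe sets, and none of the members. No member reached an unadjusted p under 0.05. No member separated the groups either, as 2.25% of all probe sets did. Beside Wfdc18, the differences were 0.15 for Wfdc2, 0.10 for Wfdc1, -0.37 for Wfdc3, 0.13 for Wfdc12, -0.0057 for Slpi and 0.079 for Wap, with adjusted p between 0.444 and 0.987. The 95% intervals of the 7 members reached from -0.88 to 0.67, the low end being that of Wfdc3. Its difference shrank to -0.12 without FP-high replicate 1.

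Among 16 other WAP-domain genes, all measured, 1 was called as higher in adenomas and 0 as lower (median -0.16), against 0.91% called over all probe sets. The counts were also 1 and 0 when FP-high replicate 1 was left out, where 488 of all 23410 probe sets were called. That larger share is the background of every list count given without this array. The called gene was Wfdc17, next to Wfdc18 in the genome and described in mice as a WAP-domain protein of activated macrophages and microglia. Its log2 level was 6.36, 5.44 and 4.75 in adenoma replicates 1 to 3. The normal arrays were at 3.24, 3.38, 3.26 and 3.59 in FP-high replicates 1 to 4, and from 3.00 through 3.18 to 3.36 (lowest, median, highest) in FP-low samples. All adenomas were above all normal arrays. The replicates of adenoma stood in the same order as for Wfdc18, though 3 arrays allow few orders. Wfdc17 rose by 2.24 ± 0.24 (SE; limma, adjusted p = 0.00054), by 2.22 without FP-high replicate 1, and the difference within the arrays of high Xist was 2.07. It also rose against FP-low (2.33, adjusted p = 0.00076) and FP-high samples alone (2.15, adjusted p = 0.0032).

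None of the other measured neighbours of Wfdc18 was called. Wfdc21, on its far side, was at 5.04, 4.81 and 4.69 in adenomas, against 4.87 to 5.06 in FP-high and 4.72 to 5.0 in FP-low samples, a difference of -0.087 (limma, adjusted p = 0.752). The chemokine genes Ccl3 and Ccl4, beyond Wfdc17, were at -0.16 and -0.13, and Heatr6, beyond Wfdc21, was at 0.21, none of them called. The genes on either side of Wfdc2, Pigt and Spint3, were at -0.016 and -0.25, not called either. The deposited table holds no probe sequences, so signal shared between the probe sets of Wfdc17 and Wfdc18 was not tested.

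**Figure D2:**
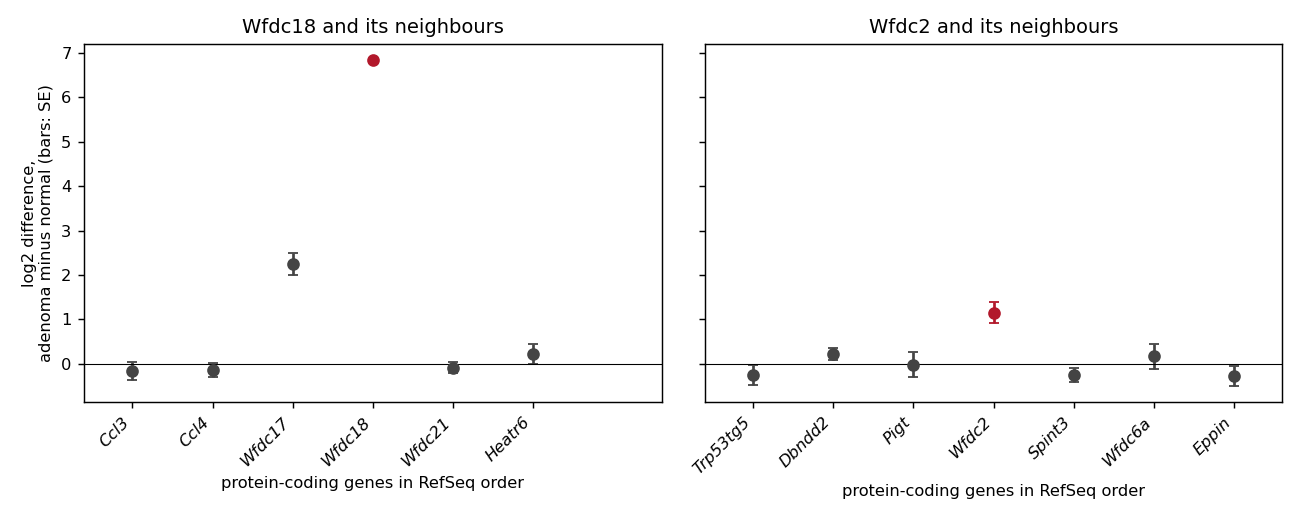
Log2 difference between adenomas and normal epithelium (y axis) of Wfdc18, Wfdc2 and measured protein-coding genes on each side in RefSeq order (x axis), with SE bars except for Wfdc18, which is not tested. Wfdc17 (2.24) is the 1 called neighbour among those plotted.

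The remaining 15 WAP-domain genes had differences from -0.34 (Wfdc8) to 1.11 (Wfdc15b), with adjusted p of 0.425 or more. Wfdc15b was at 7.08, 5.10 and 4.58 in adenomas, against 5.52, 3.96, 4.05 and 4.51 in FP-high samples and 4.05 to 5.30 (median 4.25) in FP-low samples. A single adenoma, replicate 1, lay above the normal range.

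**Figure D3:**
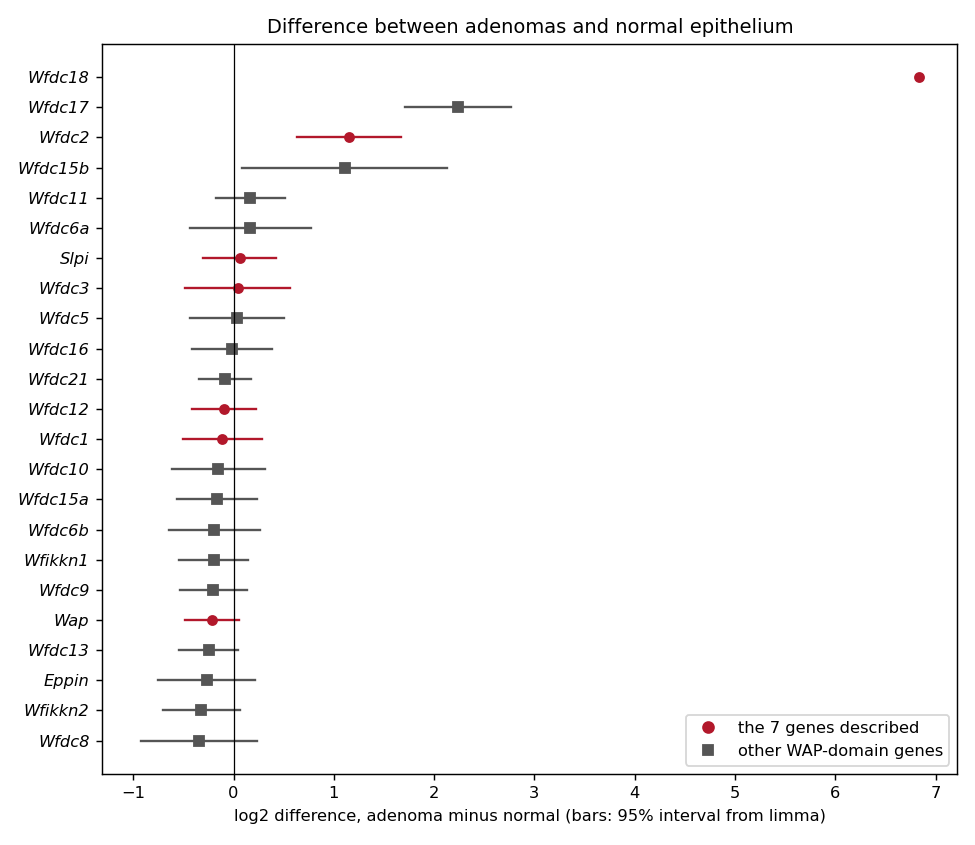
Log2 difference of adenomas from normal epithelium (x axis) for the 7 genes described (circles) and 16 other WAP-domain genes (squares), largest at the top, with 95% intervals from limma except for Wfdc18. Wfdc18 (6.83), Wfdc17 (2.24), Wfdc2 (1.15) and Wfdc15b (1.11) lie to the right, and the rest cluster about 0.

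Serine proteases, the enzymes such inhibitors act on, had 1 of 25 measured genes called as higher and 0 as lower (median -0.13), against 0.91% called over all probe sets, with the same counts without FP-high replicate 1. The called gene was Mcpt2, a protease of mucosal mast cells. It was at 5.98, 7.42 and 6.02 in adenomas, against 2.61 to 2.91 in FP-high and 2.22 to 3.33 in FP-low samples, a rise of 3.77 ± 0.30 (SE; limma, adjusted p = 2.53e-05). Other mast cell proteases on the list were not called. Mcpt1 was at 1.56 (limma, adjusted p = 0.172), while Mcpt4 was at -0.25, Cma1 at -0.17, Tpsab1 at -0.28 and Tpsb2 at -0.19. Elane, the neutrophil elastase that Slpi inhibits, was not called either (limma, adjusted p = 0.765). Its mean log2 levels were 4.16 in adenomas, 4.22 in FP-high and 4.24 in FP-low samples.

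Of 19 measured serine protease inhibitors of other families, 2 were called as higher in adenomas and 0 as lower (median 0.082), beside the same 0.91%, and the counts held without FP-high replicate 1. Serpinb5, or maspin, an epithelial serpin, was at 7.04, 7.76 and 7.25 in adenomas, against 2.86 to 3.92 in FP-high and 2.93 to 4.47 in FP-low samples, a rise of 3.95 ± 0.30 (SE; limma, adjusted p = 2e-05). Serpina3n, an acute phase serpin, rose by 2.29 ± 0.41 (adjusted p = 0.019), with 6.94 in adenoma replicate 1 against 5.11 and 4.67 in replicates 2 and 3.

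Markers of other cell types included called genes, and their counts stand against 0.91% of all probe sets. Of 12 macrophage markers 1 was called as higher, Ptprc, the leukocyte antigen CD45, by 0.79 (limma, adjusted p = 0.039), and 0 as lower. The other macrophage markers had differences from -1.89 (Lyz2, a lysozyme; adjusted p = 0.173) to 0.73 (Cd14, a lipopolysaccharide receptor; adjusted p = 0.550), with Mrc1, a mannose receptor, at 0.70 (adjusted p = 0.090). Csf1r and Adgre1, which define macrophages, were at 0.059 and -0.12. The mean of the macrophage list was 4.23 to 4.41 per adenoma array, 4.33 to 4.46 per FP-high array and 4.13 to 4.41 per FP-low array. Without FP-high replicate 1, Ptprc and Mrc1 were called as higher and Lyz2 as lower (2 and 1 of the list). In that fit 344 of all 23410 probe sets were called as higher and 144 as lower. Of 12 neutrophil markers 0 were called, and their mean was 3.34 to 4.38 in adenomas, 3.43 to 4.33 in FP-high and 3.30 to 3.70 in FP-low arrays.

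Of 10 fibroblast markers 1 was called, Dcn (decorin), at 7.62, 6.14 and 4.41 in adenoma replicates 1 to 3, against 3.48 to 4.07 in FP-high and 3.35 to 3.96 in FP-low samples (2.36 ± 0.45, SE; limma, adjusted p = 0.028). Dcn thus stood in the same order over adenomas as Wfdc18 and Wfdc17, as did Serpina3n and Wfdc15b, while Mcpt2 and Serpinb5 did not. Arrays of 3 adenomas allow few orders, so a shared order tells little. The other fibroblast markers had differences from -0.29 (Col1a2) to 0.45 (Vim), with the collagen Col1a1 at -0.044, Postn at 0.25, Lum at 0.34 and Acta2 at 0.40 (adjusted p = 0.428), none of them called. The fibroblast list averaged 4.31 to 4.97 in adenomas, 4.27 to 4.54 in FP-high and 4.13 to 4.45 in FP-low arrays. Of 14 secretory and gastric-type epithelium markers 3 were called as higher and 0 as lower. By sign alone 11 were higher and 3 lower (median 0.45). Called were the mucus-associated Tff2 by 1.87 (limma, adjusted p = 0.026) and the gastrokines Gkn1 by 1.08 (adjusted p = 0.0064) and Gkn3 by 3.63 (adjusted p = 0.030). The uncalled markers ran from -1.74 (Lyz1; adjusted p = 0.435) to 1.73 (Muc6; adjusted p = 0.149). Also lower were Defa24 at -0.93 (adjusted p = 0.248) and Muc5ac at -0.063. Without FP-high replicate 1, 4 of this list were called as higher and 2 as lower, beside 344 and 144 of all 23410 probe sets. That list averaged 7.82 to 8.03 in adenomas, 5.99 to 7.53 in FP-high and 7.26 to 7.63 in FP-low arrays. The part of any of these cells in the levels of Wfdc18, Wfdc17 and Wfdc2 was not tested.

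The 6 genes whose levels followed Wfdc18 most closely over the 13 arrays, by Pearson r among 21788 other probe sets, were chosen on that pattern and are given as a description. They were Ctse, an aspartic protease best known from the stomach (r = 0.990, rho = 0.780), the amino acid transporter Slc38a4 (r = 0.990, rho = 0.824) and the ileal bile acid transporter Slc10a2 (r = 0.987, rho = 0.654). Then came the interferon-induced membrane protein Ifitm1 (r = 0.986, rho = 0.484), the secreted chaperone clusterin, Clu (r = 0.982, rho = 0.610), and the annexin Anxa1 (r = 0.977, rho = 0.791). The next probe set had r = 0.970, and 48 exceeded 0.9. The 13 points share their libraries, and r is carried by the step between adenomas and normal arrays.

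Values of these genes differed in how they ran among the adenomas. Ctse was at 8.21, 8.71 and 7.73 in adenoma replicates 1 to 3, against means of 3.74 in FP-high and 3.81 in FP-low samples. Slc38a4 was at 10.62, 9.33 and 8.10 in adenomas, against means of 3.70 in FP-high and 3.53 in FP-low samples. Anxa1 was at 6.89, 7.25 and 7.91, the reverse order of Wfdc18, with means of 2.87 in FP-high and 2.81 in FP-low samples. Among the members Wfdc2 was the closest to Wfdc18 (r = 0.814, rho = 0.643), and Wap had the lowest r (-0.515).

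**Figure D4:**
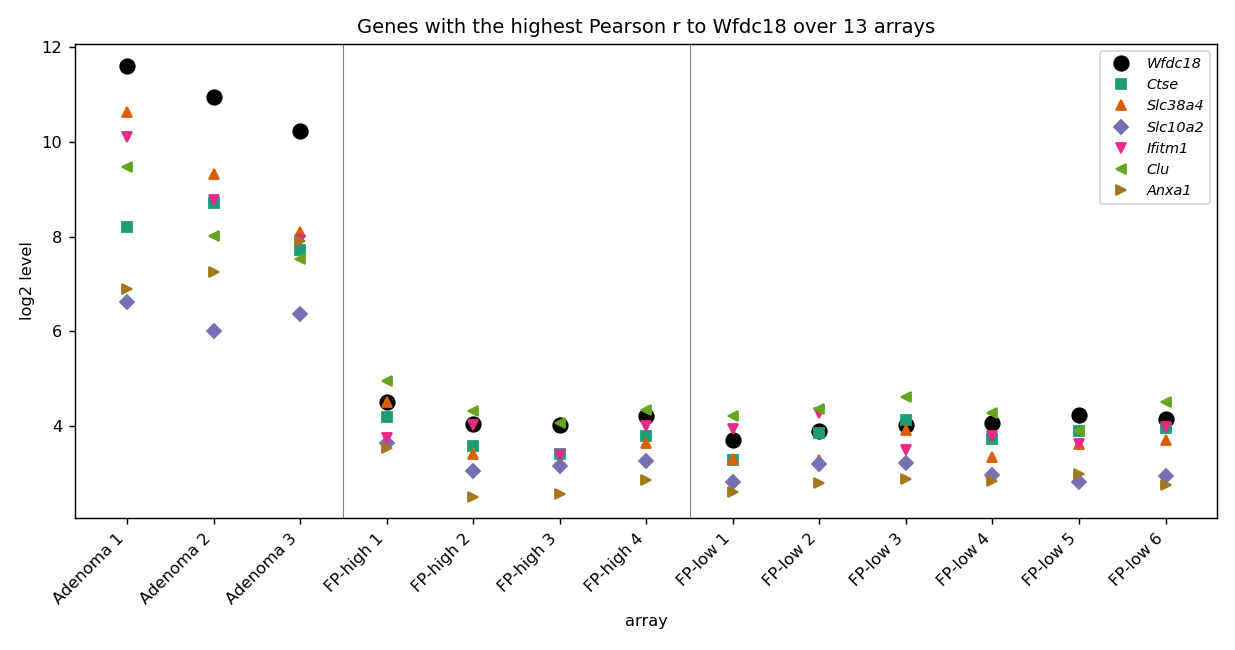
Log2 level (y axis) of Wfdc18 and the 6 genes with the highest r to it on each of 13 arrays (x axis), adenomas at the left, then FP-high, then FP-low samples. Each of the 7 genes is higher in the 3 adenomas than in the 10 normal arrays; levels are not comparable between genes.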

How the data were processed

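RNA of 13 samples of mouse small intestine (3 adenomas, 4 FP-high and 6 FP-low normal samples) was hybridised to Affymetrix Mouse Gene 1.0 ST arrays. Crypts were taken with glass capillaries and cDNA was amplified with NuGEN kits, per the labels' protocols; amplification from little RNA can distort levels. The authors deposited a log2 level for each of 35556 probe sets, made with the Affymetrix Expression Console and Transcriptome Analysis Console, per the submitters' processing notes. For versions, background correction and summarisation the sources used here give nothing; that the scale is log2 was inferred from the values' range. Of the columns with per-sample values, 0 were left unused.

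Names came from the platform annotation: 23410 had a symbol and were tested, 21789 had exactly 1, and 21698 of those matched RefSeq genes (GRCm38.p6) by identifier. All 13 arrays were fitted with limma 3.58.1 in R 4.3.3 (lmFit, eBayes, two-sided, a common spread over the 3 groups), without further normalization, filter or covariate. The Benjamini-Hochberg adjustment ran over 23410 probe sets, and an adjusted p under 0.05 was a call. "Normal" weights the means of both normal groups equally. The fit was tested on simulated data. Members and gene lists were chosen with earlier results of these data known. Named are all members, called list genes, and the 6 probe sets with the highest r to Wfdc18. Some list genes were singled out beyond that, namely Wfdc15b, Wfdc21, Epcam, Csn2, Elane, and uncalled mast cell proteases and macrophage, fibroblast, secretory and gastric-type markers. These and the neighbours were picked after their values were seen, as were the alternatives for Wfdc17. Deviations from the group means had r = 0.233, 0.102 and 0.220 between adenoma and FP-high arrays of numbers 1, 2 and 3. For same-numbered pairs with an FP-low array r was -0.361 to 0.178. Arrays of different numbers were not compared, and the labels do not state a pairing.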

Additional observations from a re-analysis of the deposited data

Results flagged for a closer look

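Wfdc3 on its main probe set was low in FP-high replicate 1 (4.14, with the other 3 arrays of the group at 5.07 to 5.19): the gap to its nearest neighbour was 0.886 of the range of the group. It was high in FP-low replicate 3 (6.00, with the next array at 5.28), a gap of 0.694 of the range. These were 2 of 14 combinations of member and normal group looked at, where chance marks about 1 in 20. FP-high replicate 1 is also the array whose values are compressed.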

How the results depend on the processing

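Wfdc18 exceeded normal epithelium by 6.49 to 7.18 under the 20 alternatives run, and Wfdc17 by 1.82 to 2.62, called in all 19 that tested it (adjusted p = 8.04e-05 to 0.020), the filter on dim probe sets having left it out. The count of called members against normal, 1 (Wfdc2), was 0 with the replicate block (1.14, adjusted p = 0.292), 0 when adjusted over all rows (adjusted p = 0.059) and 0 after dim probe sets were left out, since Wfdc2 was among those removed; with 1 array left out it was 0 to 1. Against FP-low and against FP-high alone the count was 0, 1 with array weights (Wfdc2, adjusted p = 0.0040 and 0.024), and 0 to 1 with 1 array left out. Array weights gave Wfdc2 1.40 against normal (adjusted p = 0.0030). The replicate block changed no other call of a member.

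The sign turned in 28 of 628 single-gene values under alternatives, none of them called, for main differences of 0.22 or less in size. With the replicate block Wfdc1 was at 0.00028 against normal and 0.071 against FP-low, Wfdc12 at 0.046 against FP-low, Wfdc3 at -0.012 against normal and Slpi at 0.071 between FP-high and FP-low samples. With array weights Wfdc3 was at -0.044 against normal and -0.0034 against FP-high, and Slpi at 0.14 between FP-high and FP-low samples. The mean of both probe sets put Wfdc3 at -0.055 against normal. Quantile normalization put Wfdc12 at -0.036 and Wfdc17 at -0.082 between FP-high and FP-low samples. With 1 array left out, Slpi ran from -0.058 to 0.20 against FP-high, -0.043 to 0.19 against FP-low, -0.040 to 0.20 against normal, and -0.078 to 0.12 between FP-high and FP-low samples. Wfdc1 ran from -0.35 to 0.014 against FP-high and -0.077 to 0.29 between FP-high and FP-low samples, and Wfdc12 from -0.087 to 0.0076 against FP-low. Wfdc3 ran from -0.023 to 0.33 against FP-high, -0.20 to 0.0068 against FP-low and -0.083 to 0.11 against normal. The cause was not tested. The count of all called probe sets against normal was 213; it was 1153 with array weights, 67 with the block, 488 without FP-high replicate 1, and 99 and 92 without adenoma replicates 1 and 2. Against FP-low it was 129 (868 with weights, 37 with the block, 78 without dim probe sets, 370 without FP-high replicate 1, 82 and 78 without adenoma replicates 1 and 2). Against FP-high it was 179 (594 with weights, 51 with the block, 281 without FP-high replicate 3, 72 and 88 without adenoma replicates 1 and 2). Between FP-high and FP-low samples it was 0, also without FP-high replicate 1. It was 1 to 3 after quantile normalization or weights and at most 136, without FP-high replicate 3.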

Other observations

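Several members held exactly the same deposited value on more than 1 array. Wfdc3 was at 5.12 on 4 arrays, an adenoma and 3 normal ones, Wap was at 4.95 on 4 arrays, and Wfdc12 was at 3.73 on 3. Over all tested probe sets 12.7% repeated a value on at least 3 arrays and 4.44% on at least 4. Wfdc18, Wfdc2, Wfdc1 and Slpi repeated none on their main probe sets. What produces the repeats was not tested.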
